A study of Bos taurus with 16 samples.

Results

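A set of 206 genes was lower in the liver and higher in the skeletal muscle of calves from embryos produced in vitro (IVP) than of calves from embryos collected after superovulation and transferred (multiple ovulation and embryo transfer, MOET). The genes were picked from the 27607 Ensembl gene IDs of the deposited table by their values in these same libraries. The level of a gene, in counts per 1000000 counts of its library (CPM), had to average at least 2 in each organ, which 9170 genes reached. In liver, all 4 IVP calves had to lie below all 3 MOET calves, with a mean difference of -0.5 or lower on the log2(CPM + 0.5) scale. In muscle, all IVP calves had to lie above all MOET calves, with a mean difference of 0.3 or higher. Both conditions were met by 212 genes, and 6 of them (IRS1, ITGA1, ITGA3, MTOR, ZBTB21 and ZNF366) were set aside by name, since the rule leaves out INSR, IRS1, MTOR, PRKAA1 and the zinc-finger, solute carrier, collagen, laminin and integrin families. The differences between IVP and MOET calves in these genes are therefore a description of how they were chosen, given without a test.

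Polyadenylated RNA from the right liver lobe and the semitendinosus muscle of Holstein bull calves was sequenced, 1 library per calf and organ. The 4 IVP calves (3208, 3209, 5833 and 5841) came from oocytes aspirated from the ovary and were fertilized and cultured in serum-free media, and they were 98 to 103 days old. The 3 MOET calves used here (3217, 3218 and 5932) were 102 to 104 days old. All 7 grew in recipients and were kept alike after birth, with birth weights of 36 to 41 kg in IVP and 33 to 39 kg in MOET calves. All IVP calves and MOET calves 3217 and 3218 had the same dam. Calves 3208, 3209, 3217 and 3218 were sired by Builder P, calves 5833 and 5841 by My Dream P RC, and calf 5932 had another dam and the sire Solitær P. A further MOET calf, 3213, aged 144 days, was left out by the rule.

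Liver and skeletal muscle both burn fatty acids in mitochondria, and liver also oxidises long ones in peroxisomes. Both organs take up transferrin-bound iron and build haem from it. In muscle, calcium that has triggered contraction is pumped back into the sarcoplasmic reticulum by the calcium pump ATP2A2, which PLN inhibits, in slow fibres and by a related pump in fast fibres.

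Library totals ranged from 22758137 to 24667728 counts in liver and from 23677247 to 25626474 in muscle. The counts had been adjusted for age by the authors, and the library of calf 3213 lay closer to the mean of the other MOET calves (median absolute deviation 0.0214 in liver and 0.0134 in muscle, log2 scale) than any other calf did to its group, for which the lowest values were 0.0971 and 0.119. Organ labels matched their markers. The summed level of 5 of 10 skeletal muscle fibre markers that could be named was 122647 to 144561 CPM in muscle and at most 0.932 CPM in liver, with MYH2 and MYH7 at 0 in every liver library. The sum of 3 of 10 hepatocyte markers was 5902 to 8368 CPM in liver, most of it TTR, and 1.04 to 34.4 CPM in muscle. The highest muscle value was that of calf 3209, with TTR at 31.9 CPM. Every IVP liver was below every MOET liver for APOB (difference -0.86 on the log2(CPM + 0.5) scale). For APOA1 (1.48) and TTR (0.45) every IVP liver was above every MOET liver. Among markers of other cell types, the sum of 4 macrophage markers of 10 was 1567 to 2350 CPM in IVP and 1231 to 1657 CPM in MOET liver. The sum of 3 genes of 8 on the bile duct list was 178 to 357 CPM and 145 to 181 CPM. Nearly all of it was KRT18, so the sum follows that gene and does not measure bile duct cells. CFTR was lower in every IVP than in every MOET liver (difference -0.82), and SPP1 differed by 0.04. The sum of 4 endothelial markers of 10 was 195 to 373 CPM in IVP and 173 to 194 CPM in MOET muscle, and DCN, a fibroblast product, was 132 to 204 CPM and 212 to 275 CPM. PRSS2, a pancreatic trypsinogen and the 1 of 8 pancreatic markers that could be named, was at 294 to 519 CPM in IVP liver and at 0 in all 3 MOET livers, and at 17.0 to 22.7 CPM and at most 0.199 CPM in muscle. No lymphocyte, erythrocyte or adipocyte marker could be named. The part of these markers in the differences described here was not tested, and in bulk tissue fewer cells of a type and less RNA per cell cannot be told apart.

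In liver, the 206 genes were lower in IVP calves by 0.51 to 1.66 on the log2(CPM + 0.5) scale, with a median difference of -0.86, or 1.81-fold. In muscle they were higher by 0.30 to 2.16, with a median of 0.46, or 1.38-fold. Over all 9170 genes the medians were -0.11 and 0.03. The difference was over 2-fold in liver for 62 of the genes, in muscle for 11, and in both organs for 4. For 186 of the 206 the difference in liver was the larger. These counts lean on the rule, which asked for a larger difference in liver (-0.5) than in muscle (0.3), so they do not compare the organs. The liver conditions alone were met by 12.4% of the 9170 genes, the muscle conditions alone by 6.76%, and both by 2.31%. Without a minimum size, all IVP calves lay below all MOET calves in liver for 22.8% of the 9170 genes and above them in muscle for 8.54%. The reverse pattern, higher in IVP liver and lower in IVP muscle by the same sizes, was met by 55 genes, while 9 were higher in both organs and 22 were lower in both. The plot of the liver against the muscle difference shows the 206 genes in the upper left corner of a cloud centred near zero.

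**Figure D1:**
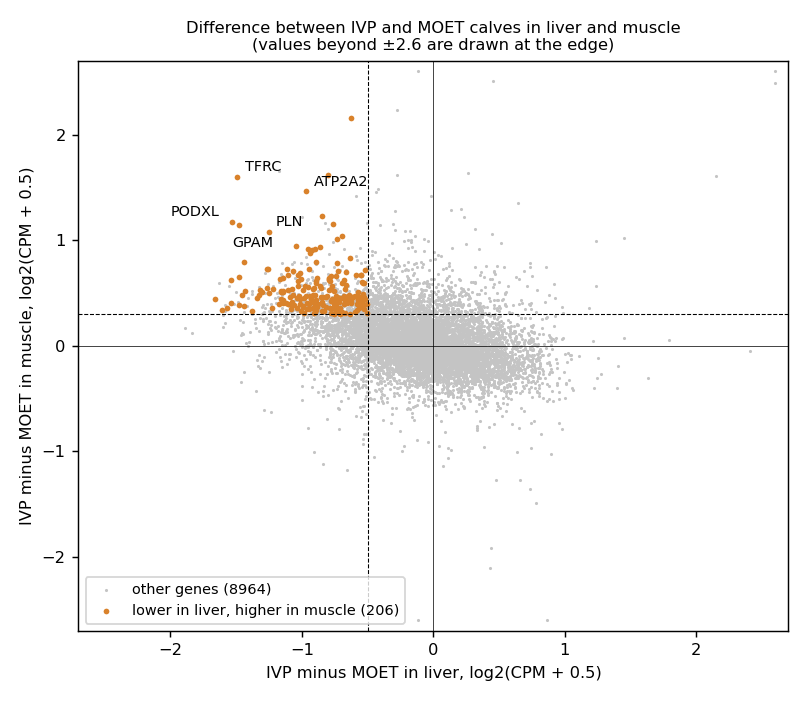
Each point is a gene above the minimum CPM in both organs, with the mean of the 4 IVP calves minus the mean of the 3 MOET calves in liver on the x axis and in muscle on the y axis, both on the log2(CPM + 0.5) scale, and dashed lines at the differences of -0.5 and 0.3 that the rule required. The 206 genes (orange) lie beyond both lines, some grey points there had overlapping groups or were set aside by name, and TFRC, PODXL, GPAM, PLN and ATP2A2 are labelled.

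A symbol could be given to 135 of the 206 genes from the paper's supplementary tables, and the 71 others are not described one by one. In what follows the values of the IVP calves are given in the order 3208, 3209, 5833 and 5841 and those of the MOET calves in the order 3217, 3218 and 5932. The 116 genes with a role that is textbook knowledge were sorted by hand into 11 groups, after their values had been seen. Because the libraries were not stranded, reads of overlapping genes could not be told apart, and genes with near-identical copies could lose or share reads.

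Of the named genes, TFRC, the transferrin receptor that brings iron into cells, stood furthest out when the smaller of a gene's differences in the 2 organs was ranked. In liver, TFRC was at 26.0, 13.8, 11.3 and 5.24 CPM in the IVP calves and at 34.1, 30.3 and 41.5 CPM in the MOET calves. In muscle it was at 41.3, 16.3, 24.2 and 53.4 CPM and 11.3, 6.84 and 11.9 CPM. The IVP mean was lower by 1.49 (SE 0.47) in liver and higher by 1.602 (SE 0.45) in muscle on the log2 scale, and calf 5841 was at the same time the lowest calf in liver and the highest in muscle. ALAS1, the enzyme of the first and rate-limiting step of haem synthesis, varied little among the IVP livers, which had 188, 199, 187 and 169 CPM while the MOET livers had 285, 325 and 416 CPM. In muscle the values of ALAS1 were 99.5, 93.0, 128 and 141 CPM against 65.9, 57.2 and 55.2 CPM, so the IVP calves were 1.82-fold lower in liver and 1.91-fold higher in muscle. IREB2, the RNA-binding protein that stabilises the TFRC transcript when iron is scarce, differed by -1.02 in liver and 0.48 in muscle. BACH1, a haem-binding repressor of haem oxygenase, differed by -1.15 and 0.41. The medians of these 4 genes were -1.08 in liver and 0.71 in muscle.

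A second group of 11 genes makes, activates or oxidises fatty acids or moves lipids, with median differences of -1.02 in liver and 0.62 in muscle. GPAM, the mitochondrial acyltransferase that opens triglyceride synthesis, was at 25.1, 16.04, 14.03 and 6.85 CPM in IVP liver and 52.8, 37.2 and 33.0 CPM in MOET liver. In muscle GPAM was at 7.02, 5.22, 16.8 and 7.27 CPM in the IVP and 4.30, 2.86 and 3.32 CPM in the MOET calves, and IVP calf 5833 stood well above the others there. PPARA, the nuclear receptor that switches on fatty acid oxidation in liver, had 23.1, 14.3, 13.6 and 11.8 CPM in IVP liver against 39.0, 23.8 and 43.2 CPM in MOET liver. Its muscle values were 10.9, 10.4, 12.3 and 17.4 CPM against 8.56, 6.88 and 8.13 CPM. The highest IVP liver, that of calf 3208, and the lowest MOET liver, that of calf 3218, were nearly equal.

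Peroxisomal oxidation and fatty acid synthesis were both represented. EHHADH, a bifunctional enzyme of peroxisomal beta-oxidation, had 161, 104, 153 and 47.2 CPM in IVP liver and 232, 176 and 242 CPM in MOET liver. It was low in muscle, where it differed by 0.62 (SE 0.23). ACBD5, a peroxisomal membrane protein that binds acyl-CoA, differed by -1.11 in liver and 0.67 in muscle. On the side of synthesis, ACACA, the acetyl-CoA carboxylase that forms malonyl-CoA, had 25.4, 18.5, 10.6 and 8.13 CPM in IVP liver against 32.0, 27.9 and 27.8 CPM in MOET liver. ACLY, which splits citrate to supply acetyl-CoA, had 43.2, 43.8, 26.7 and 34.2 CPM against 52.9, 82.3 and 46.5 CPM, and its highest value was that of MOET calf 3218, which for most of the set was the lowest MOET liver. PANK1, a pantothenate kinase that starts coenzyme A synthesis, was 2.06-fold higher in IVP muscle and 1.62-fold lower in IVP liver.

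Of the 5 genes of calcium handling and ion channels, ATP2A2 and PLN were the most abundant. ATP2A2, the calcium pump of slow-twitch and heart muscle, had 902, 959.9, 2892 and 2522 CPM in IVP muscle and 783, 534 and 449 CPM in MOET muscle. Calves 5833 and 5841, which share a sire, stood far above the other 2 IVP calves, and those were still above every MOET calf. In liver ATP2A2 had 43.4, 32.0, 29.3 and 23.2 CPM in the IVP and 64.2, 57.6 and 62.6 CPM in the MOET calves. PLN, phospholamban, the inhibitor of that pump, had 263, 203, 799 and 540.2 CPM in IVP muscle and 202, 177 and 174 CPM in MOET muscle, where IVP calf 3209 and MOET calf 3217 were nearly equal. In liver PLN was low and the groups were further apart, with 11.3, 8.25, 10.1 and 7.58 CPM against 26.7, 18.9 and 23.0 CPM. MYH7, the myosin heavy chain of slow fibres, is not in the set because it was at 0 in every liver library. Its level in muscle was 5423, 4677, 15955 and 9850.1 CPM in the IVP and 3679, 2315 and 1994 CPM in the MOET calves, and calves 5833 and 5841 were again the highest. MYLPF, a light chain of fast fibres, was lower in every IVP calf, with 10247, 11268, 6499.6 and 8447 CPM against 11786, 12590.2 and 13215 CPM. MYH2, a fast myosin heavy chain, went the other way, with 11218, 11451, 15176 and 17954 CPM in the IVP and 7947, 6507 and 8757 CPM in the MOET calves. The fast troponin TNNT3 differed by -0.38 with overlapping groups, and ACTA1, the skeletal muscle actin, by -0.29. The part of fibre composition in the muscle differences was not tested.

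MCU, the pore of the mitochondrial calcium uniporter, had 14.2, 10.05, 16.01 and 16.3 CPM in IVP muscle and 6.87, 7.71 and 8.93 CPM in MOET muscle. In liver it was scarce, with 3.04, 2.50, 2.55 and 0.639 CPM against 4.13, 3.24 and 5.06 CPM, and the value of calf 5841 stood apart. ITPR1, the calcium release channel that answers inositol trisphosphate, was lower in IVP liver by 1.44 and higher in IVP muscle by 0.38. ABCC9, the sulfonylurea receptor subunit of ATP-sensitive potassium channels, differed by -1.61 and 0.34. The median differences of the 5 genes were -1.25 in liver and 0.80 in muscle.

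Among 7 mitochondrial genes, the median differences were -1.07 in liver and 0.51 in muscle. NNT, the transhydrogenase that makes mitochondrial NADPH, had 84.0, 67.2, 78.3 and 27.9 CPM in IVP liver and 115, 88.8 and 141 CPM in MOET liver. In muscle it had 88.8, 104, 153 and 171 CPM and 74.9, 58.9 and 66.3 CPM. MFN2, a mitofusin that joins the outer membranes of mitochondria, had 181, 169.7, 295 and 259.6 CPM in IVP muscle against 141, 132 and 128 CPM in MOET muscle. In liver MFN2 was close to the limit of the rule at -0.52 (SE 0.18). TFAM, which packages and transcribes mitochondrial DNA, differed by -1.07 and 0.39. TRAK1 and TRAK2, the adaptors that couple mitochondria to motors on microtubules, differed by -0.81 and -1.44 in liver and by 0.47 and 0.52 in muscle. The remaining members were ALDH5A1, a dehydrogenase of the breakdown of gamma-aminobutyrate, at -1.14 and 0.51, and AASS, of lysine breakdown, at -1.07 and 0.48.

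The steroid hormone receptor and transcription cofactor group held 17 genes, with medians of -0.99 and 0.44. ESR1, the oestrogen receptor alpha, had 18.9, 12, 11.5 and 5.53 CPM in IVP liver and 37.0, 24.3 and 33.5 CPM in MOET liver. In muscle ESR1 had 10.8, 10.3, 12.2 and 12.2 CPM and 8.56, 7.28 and 8.25 CPM, a smaller gap with little spread within the groups. The p160 coactivators NCOA2 and NCOA3, which bind such receptors, were lower in IVP liver by 1.26 and 1.14 and higher in IVP muscle by 0.55 and 0.43. NRIP1, a corepressor of the same receptors, had the largest liver difference of the 206, with 3.78, 2.04, 2.68 and 1.32 CPM against 10.4, 5.43 and 10.4 CPM. EP300, the histone acetyltransferase these coactivators recruit, had 53.6, 36.6, 44.0 and 21.2 CPM in IVP liver against 80.7, 56.9 and 87.0 CPM in MOET liver, and differed by 0.36 in muscle. TBX3, a T-box repressor, differed more in muscle than in liver, with 7.57, 7.66, 18.9 and 13.98 CPM in the IVP calves and 4.14, 4.05 and 6.25 CPM in the MOET calves. SETD2, the methyltransferase of lysine 36 of histone H3, differed by -0.79 and 0.36. CDK8, the kinase of the Mediator complex, differed by -0.62 and 0.46, CTNNB1, beta-catenin, by -0.58 and 0.34, and SKIL, a SMAD corepressor, by -0.66 and 0.41.

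The largest group by role was that of kinases, phosphatases and GTPase signalling, with 23 genes and medians of -0.91 and 0.48. LRRK2, a kinase of Rab GTPases, had 12.5, 10.2, 12.5 and 7.36 CPM in IVP liver and 24.7, 16.7 and 21.4 CPM in MOET liver. In muscle LRRK2 was scarce, with 2.85, 2.59, 3.63 and 3.58 CPM against 1.5, 1.11 and 1.72 CPM. PRKAR2A, a regulatory subunit of protein kinase A, had 10.3, 6.13, 7.12 and 3.32 CPM in IVP liver against 20.3, 12.7 and 21.9 CPM in MOET liver and was 1.73-fold higher in IVP muscle, where the groups stood well apart. SNRK, a kinase related to the AMP-activated kinase, differed by -0.73 (SE 0.33) and 0.71 (SE 0.17). SOS1, a guanine nucleotide exchange factor, differed by -0.98 and 0.46. ALPK3, a kinase of heart and skeletal muscle, differed by -1.32 and 0.48. JAK2, the kinase behind the growth hormone receptor, differed by -0.85 and 0.55. FNIP1, a partner of folliculin and of the AMP-activated kinase, differed by -1.16 and 0.45. CDC42BPA, a kinase downstream of CDC42, and SIPA1L1, an activator of Rap hydrolysis, were at -0.67 and -0.76 in liver and at 0.44 and 0.35 in muscle.

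The 14 genes of cytoskeleton and junctions had medians of -0.79 and 0.59. The spectrins SPTBN1 and SPTAN1, which form the mesh under the plasma membrane, were among the most abundant of the set. SPTBN1 had 342, 269, 272 and 186 CPM in IVP liver against 497, 366 and 504 CPM in MOET liver. In muscle it had 174, 153, 237 and 191 CPM against 124, 120.3 and 122 CPM, and the 3 MOET calves were close to each other. SPTAN1 differed by -0.56 in liver and 0.39 in muscle. UTRN, utrophin, the relative of dystrophin, had 11.9, 9.93, 16.7 and 14.6 CPM in IVP muscle against 7.54, 6.80 and 8.89 CPM in MOET muscle and differed by -0.94 in liver. The adjacent genes PFN2, a profilin, and TSC22D2 were the only pair of the named genes that neighbour each other in the RefSeq gene order. PFN2 differed by -0.54 and 0.59, and TSC22D2 by -0.63 and 0.41.

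Genes of protein turnover, traffic and RNA had lower medians in muscle than those of iron, lipids and calcium. The 11 genes of the ubiquitin system had medians of -0.90 and 0.39, the 9 of membrane traffic -0.77 and 0.41, and the 7 of RNA binding and nuclear transport -0.92 and 0.45. ITCH and SMURF2 are ubiquitin ligases of the NEDD4 family, and they differed by -1.11 and -0.93 in liver and 0.39 and 0.45 in muscle. UBR3, a ligase of the UBR family, had 100.2, 117, 90.3 and 115 CPM in IVP muscle against 85.3, 73.7 and 87.7 CPM in MOET muscle, and at most 12 CPM in IVP liver against at least 13.5 CPM in MOET liver. Of the traffic genes, ITSN1, an endocytic scaffold, differed by -0.59 and 0.68. TRIP11, a golgin, differed by -0.67 and 0.70, and VPS13C, a lipid transfer protein between endoplasmic reticulum and late endosomes, by -0.76 and 0.41. STAU2, a double-stranded RNA-binding protein of RNA transport, had 28.9, 29.3, 33.2 and 35.4 CPM in IVP muscle and 20.2, 19.6 and 20.8 CPM in MOET muscle, and in liver 4.40, 3.63, 2.98 and 1.75 CPM against 8.30, 5.55 and 8.97 CPM.

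The 8 extracellular and cell surface genes had medians of -0.92 and 0.60. PODXL, podocalyxin, a sialomucin of endothelium, had 3.25, 1.21, 2.46 and 0.298 CPM in IVP liver and 6.15, 3.65 and 6.18 CPM in MOET liver. In muscle it had 5.35, 4.94, 12.02 and 7.39 CPM and 3.28, 2.07 and 3.24 CPM, with calf 5833 the highest. SPARCL1, a matricellular protein of vessels and stroma, had 107, 93.0, 87.1 and 69.6 CPM in IVP liver and 157, 118 and 141 CPM in MOET liver. Its muscle values were 106, 82.5, 129 and 119.6 CPM and 63.1, 54.1 and 64.1 CPM, and the groups stood well apart. ECM2, an extracellular matrix protein, differed by -1.26 (SE 0.43) and 0.73 (SE 0.16). NOTCH3, the Notch receptor of vascular mural cells, differed by -0.69 and 0.31, and IGFBP5, an insulin-like growth factor binding protein, by -0.96 and 0.56. Of the endothelial markers, the sum was higher in IVP than in MOET muscle, as given above, and in liver it was 182 to 257 CPM in IVP and 172 to 204 CPM in MOET calves, but its members went different ways there. VWF was at 20.5, 17.5, 16.8 and 23.4 CPM in IVP and 32.3, 29.6 and 28.0 CPM in MOET liver, with every IVP calf below every MOET calf, and CDH5 differed by -0.51 with overlapping groups. EGFL7 and CLDN5 were higher in IVP liver by 0.88 and 0.98, with every IVP calf above every MOET calf. In muscle all 4 had a higher mean in IVP calves, by 0.26 for VWF, 0.71 for CDH5, 0.48 for EGFL7 and 0.37 for CLDN5. The groups overlapped there for VWF and CLDN5. The part of these 4 markers in the values of PODXL was not tested. The plot by calf shows 14 of the 15 named genes for which the smaller of the differences in the 2 organs was largest. The plot by role sets out the 116 genes in their 11 groups, whose ranges all overlap in both organs.

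**Figure D2:**
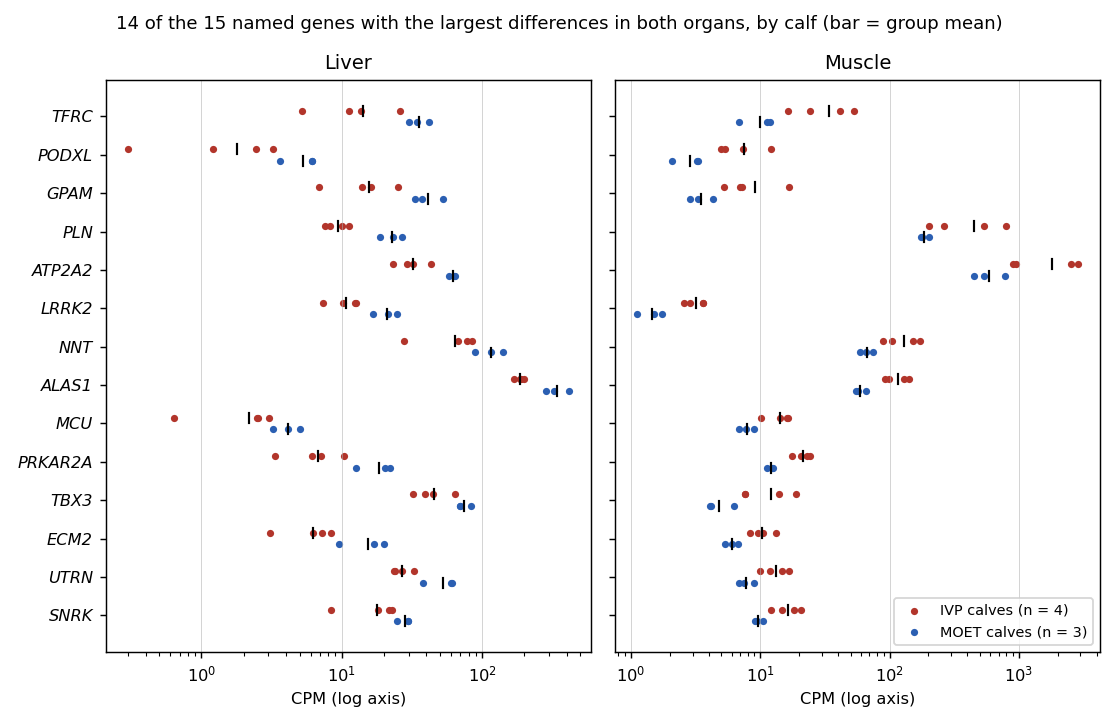
CPM on a log axis of 14 of the 15 named genes with the largest smaller difference, with 1 point per IVP calf (red, n = 4) and per MOET calf (blue, n = 3) and black bars at the group means, liver on the left and muscle on the right. The red points lie left of the blue ones in liver and right of them in muscle for all 14 genes, as the rule demands, and PLN and ATP2A2 are the genes with the highest muscle values.

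**Figure D3:**
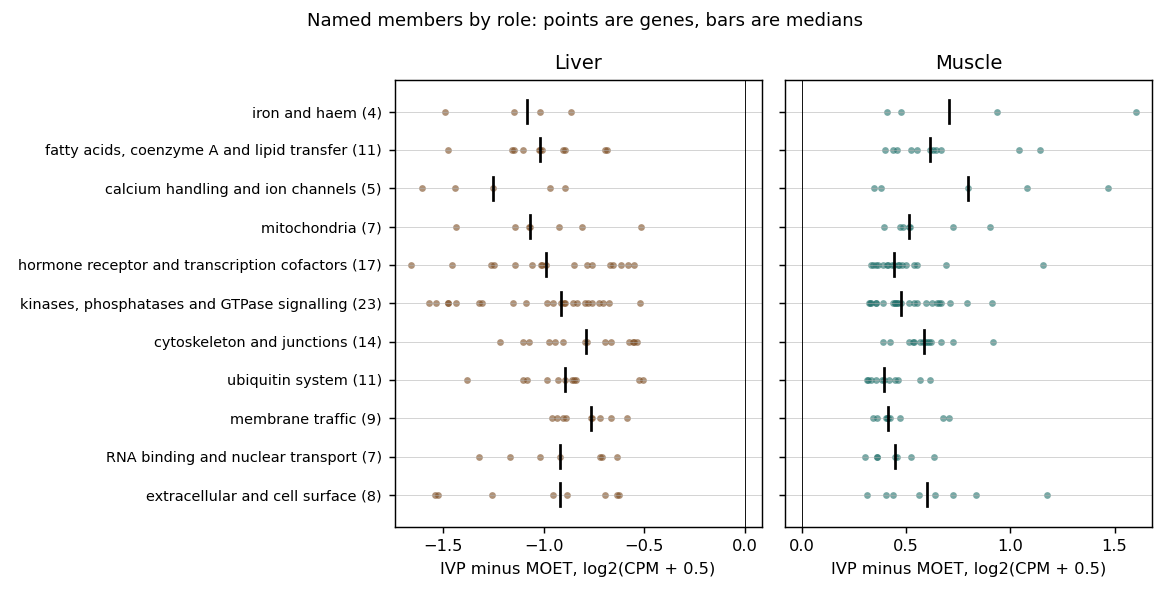
Mean of the IVP minus mean of the MOET calves on the log2(CPM + 0.5) scale for the 116 genes given a role, in liver (left) and muscle (right), with 1 point per gene and bars at the group medians. Group medians run from -1.25 to -0.77 in the liver panel and from 0.39 to 0.80 in the muscle panel, and the points of the groups overlap.

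Pathway lists showed how the set sat among related genes, and all of them were written with earlier results of these data known. They could be filled only with genes named in the paper's tables, which the study chose on these same libraries, so their directions are not independent evidence. Of 19 cytoskeletal linkers and motors above the minimum CPM, 6 belonged to the set and 18 were lower in IVP liver and higher in IVP muscle in the mean, against 41.1% of all 9170 genes and 37.0% of the 2765 named ones. For coactivators, corepressors and Mediator the counts were 4 and 17 of 19, and for ubiquitin ligases and deubiquitinases 3 and 17 of 21. Among chromatin and histone modifiers 2 of 33 belonged to the set (EP300 and SETD2) and 23 had both directions, and among traffic and lipid transfer genes 3 and 16 of 23. Of 19 genes of Notch, Wnt, Hippo and TGF-beta signalling, 3 belonged to the set and 14 had both directions, and of 9 nuclear receptors and metabolic regulators 3 (PPARA, ESR1 and ACACA) and 6. Of 14 genes of insulin, PI3K and mTOR signalling, 11 had both directions, with medians of -0.65 and 0.26, and 0 are in the set after IRS1 and MTOR were set aside by name. Vascular receptors and ligands gave 0 and 3 of 6. The set as a whole made up 2.25% of the genes above the minimum CPM and 4.88% of the named ones, and no list was tested.

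The calves did not contribute alike. In liver, calf 5841 was the lowest of the 4 IVP calves for 194 of the 206 genes, 94.2%, and calf 3208 was the highest for 184, 89.3%. The same calves held these places for 49.6% and 40.5% of all 9170 genes, and for 92.4% and 84.4% of the 925 genes that met the liver conditions only. The median deviation of the 206 genes from the MOET mean was -0.43 in calf 3208, -0.80 in calf 3209, -0.70 in calf 5833 and -1.49 in calf 5841. Among the MOET livers, that of calf 3218 was the lowest for 191 genes, 92.7%. It was the lowest for 53.0% of all 9170 genes and for 85.3% of the 925 genes. The median of calf 3218 was -0.25, while calves 3217 and 5932 were at 0.13 and 0.12. In muscle the order was looser. Calf 5841 was the highest IVP calf for 99 genes (48.1%, beside 40.4% of all 9170) and calf 5833 for 84 (40.8%, beside 40.4%, so near the share of all genes). Calf 3209 was the lowest for 122 (59.2%, beside 46.9%). Of the 408 genes that met the muscle conditions only, calf 5841 was the highest for 31.9% and calf 5833 for 58.3%. Calf 3209 was the lowest for 66.2% of those 408, so its place was not particular to the set. The medians were 0.41 in calf 3208, 0.34 in calf 3209, 0.59 in calf 5833 and 0.61 in calf 5841. The MOET muscles had medians of 0.03, -0.09 and 0.07.

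**Figure D4:**
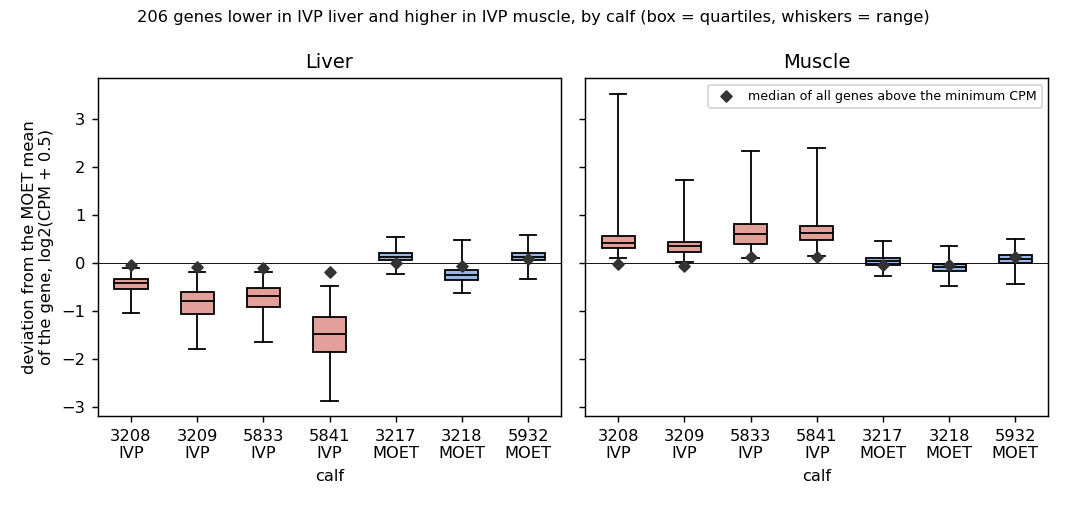
Deviation of the 206 genes from the MOET mean of each gene on the log2(CPM + 0.5) scale in each calf, liver on the left and muscle on the right, with boxes at the quartiles, whiskers over the whole range and diamonds at the median of all genes above the minimum CPM. The box of calf 5841 is the lowest in liver (median -1.49) and those of calves 5833 and 5841 are the highest in muscle (0.59 and 0.61).

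The spread of the set within a group was also wide in liver. The median SD of the 206 genes over the 4 IVP livers was 0.468 on the log2 scale, against 0.230 for all 9170 genes, and over the 3 MOET livers it was 0.235 against 0.149. In muscle the medians were 0.200 against 0.192 in IVP and 0.137 against 0.151 in MOET calves. The genes were also less abundant than others, with a median of 13.4 CPM in liver and 7.70 CPM in muscle against 19.7 and 13.01 CPM over all 9170. The lowest single count behind any value of the set was 7 in liver and 21 in muscle.

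Because sire and embryo origin overlap only in part, the differences were also taken among the offspring of the shared dam and the sire Builder P, 2 IVP against 2 MOET calves. There the 206 genes had a median difference of -0.56 in liver, from -1.28 to -0.11, and of 0.41 in muscle, from 0.07 to 2.36. The size the rule required was reached by 127 of them in liver, 153 in muscle and 102 in both organs. Between the 2 IVP calves of My Dream P RC and MOET calf 5932, the medians were -1.20 and 0.52, and 205 and 180 genes reached that size, but there the origin cannot be told apart from the parents. TFRC differed by -0.75 in liver and 1.51 in muscle within the Builder P calves and by -2.35 and 1.56 between the others. For ATP2A2 the muscle difference was 0.52 within the Builder P calves and 2.59 between the others, and for PLN 0.29 and 1.91. For LRRK2 the muscle values were nearly the same, 0.84 and 0.88. All these calves entered the rule, so their values are parts of the same difference.

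Near the limits of the rule the choice turned on small amounts. RNF40, a ubiquitin ligase of histone H2B, was just inside in liver at -0.51 (muscle 0.31), as was a gene without a name at -0.51 (muscle 0.39), and 2 genes without a name were just outside at -0.49, with muscle differences of 0.44 and 0.77. In muscle, SCAF8, a splicing-related protein, was just inside at 0.303 and a gene without a name at 0.3002. TNKS2, a tankyrase, was just outside at 0.298 although it was lower in IVP liver by 1.38, and ATP2C1, a Golgi calcium pump, was just outside at 0.297 with -0.70 in liver.

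The difference between the organs, averaged over the 7 calves, was not used by the rule beyond the minimum CPM, and it was tested with edgeR's quasi-likelihood test over 15377 genes with the calf as a block. At a Benjamini-Hochberg adjusted p of 0.05, 78 of the 206 genes were higher in liver, 80 were higher in muscle and 48 passed in neither direction. That is 37.9% and 38.8%, beside 34.1% and 45.9% of the 9170 genes above the minimum CPM and 42.9% and 38.4% of all genes tested. The median difference, muscle minus liver, was 0.01 for the set and 0.17 for the 9170. This balance rested on the scaling between organs. With column totals in place of TMM factors, 127 of the set (61.7%) were higher in liver and 45 (21.8%) in muscle, beside 56.6% and 25.1% of the 9170, and the medians moved to -0.65 and -0.49. The genes given next with a fold kept their direction and their call under every scaling and with each calf left out.

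Genes of lipid oxidation and synthesis were among those richer in liver. EHHADH was 17.97-fold higher in liver than in muscle (log2 difference -4.17, SE 0.24, adjusted p = 7.7e-09, edgeR), PANK1 6.63-fold, ACLY 3.66-fold, ACBD5 3.64-fold and ACACA 3.11-fold. Of the 11 genes of the fatty acid group, 9 were, with TMM factors, higher in liver and 0 in muscle. ALDH5A1 (4.99-fold), TBX3 (4.46-fold), FCHSD2, a regulator of endocytosis (4.13-fold), and LRRK2 (3.95-fold) were also higher in liver. At the other end, ALPK3 was 91.9-fold higher in muscle (log2 difference 6.52, SE 0.17, adjusted p = 5.8e-12, edgeR), ATP2A2 38.9-fold, PLN 33.0-fold and MCU 6.21-fold. Of the 5 genes of calcium handling and ion channels, 4 were, with TMM factors, higher in muscle and ITPR1 was higher in liver. PFN2 (22.0-fold), KIF1B, a kinesin that carries mitochondria and vesicles (13.9-fold), UBR3 (12.7-fold), IGFBP5 (12.5-fold), STAU2 (9.15-fold) and MFN2 (4.12-fold) were higher in muscle too. EHHADH was thus lower in IVP calves in the organ where it was abundant, and ATP2A2 and PLN were higher in IVP calves in the organ where they were abundant. These directions were fixed by the rule, which required them of every gene in the set.

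**Figure D5:**
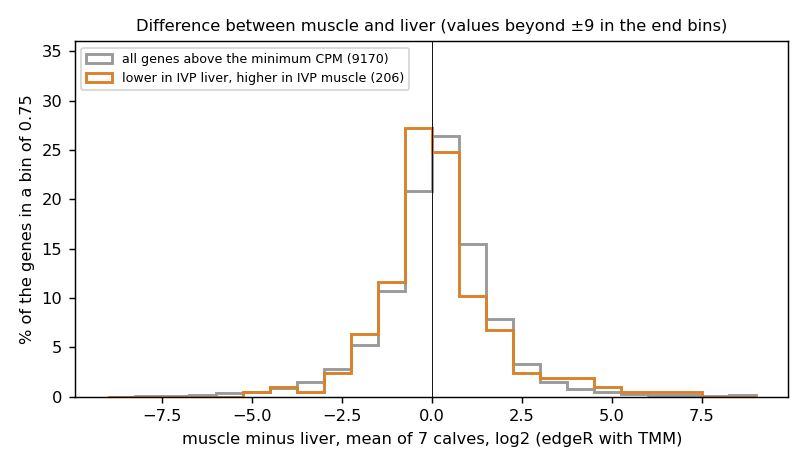
Share of genes in bins of 0.75 of the log2 difference, muscle minus liver, from the edgeR fit over 7 calves, for the 206 genes (orange) and for all 9170 genes above the minimum CPM (grey). The curves overlap and are centred close together (medians 0.01 and 0.17), and this placing depends on the TMM scaling between the organs.

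In the fits of IVP against MOET over all genes, edgeR's quasi-likelihood test called 0 of the 206 genes lower in liver at an adjusted p of 0.05, where it called 0% of 14416 genes lower, and the lowest adjusted p in the set was 0.0644. The unadjusted p was under 0.05 for 180 of them, beside 15.9% of all genes tested, and DESeq2 called 118, beside 7.74% of its genes with an adjusted p. In muscle edgeR called 12 of the set higher, beside 0.366% of 13098 genes: ALAS1, ECM2, ITSN1, LRRK2, MCU, PRKAR2A, SNRK, SPARCL1, STAU2, UTRN and 2 genes without a name. The unadjusted p was under 0.05 for 197, beside 11.4%, and DESeq2 called 65, beside 2.93%. These contrasts chose the genes, so the calls only describe them.

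Membership depended on scaling and on single calves. With TMM factors 164 genes followed the rule, of which 127 were shared with the 206 (61.7% of the set and 77.4% of the 164), and with DESeq2 size factors 149, of which 115 were shared. TMM moved the median difference of all genes from -0.11 to 0.04 in liver and from 0.03 to -0.01 in muscle, and the medians of the set to -0.70 and 0.42. The 115 genes that followed the rule under all 3 scalings hold 80 of the 135 named genes. They include TFRC, ALAS1, PODXL, GPAM, PLN, ATP2A2, EHHADH, PPARA, ESR1, NCOA2 and EP300. Left out, among the genes described here, were ACACA, ACLY, MFN2, NRIP1, CTNNB1, AASS, ABCC9, CDK8, ITCH, ITSN1, MTRR, NOTCH3 and PCMTD1. Also left out were PDS5A, PFN2, RNF40, SCAF8, SKIL, SPARCL1, SPTAN1, STOM, TRIP11, TSC22D2, UBR3, VPS13C and WAPL. Leaving out a calf loosens the rule, since fewer calves must be separated, and the number was 406 without calf 3208, 359 without calf 5932, 320 without calf 3209 and 311 without calf 3218. Without calf 5841 it was 144, of which 138 were in the set, and the median differences of the 206 genes were -0.64 in liver and 0.42 in muscle. In each of these settings all 206 genes kept a lower mean in IVP liver and a higher mean in IVP muscle. With a calf left out this was fixed in advance, since the rule had separated every IVP calf from every MOET calf. Under the other scalings the directions could hardly change either. The smallest differences in the set were -0.51 in liver and 0.30 in muscle. In liver its median moved from -0.86 to -0.70 with TMM factors and -0.69 with DESeq2 size factors. In muscle it moved from 0.46 to 0.42 and 0.41. The kept directions are therefore no test of the scaling.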

How the data were processed

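The authors made 16 unstranded libraries from polyadenylated RNA of liver and muscle of 8 calves. Their steps were read filtering (SOAPnuke), alignment to bosTau9 (STAR, version 2.7), gene-level counting on Ensembl genes (HTSeq-count) and an age adjustment (sva), and the model of that adjustment is not given in the sources used here. The deposited values are whole numbers and were treated as estimated counts, and rounding changed 0 of them. Library totals were 22758137 or more, but the lowest counts of the set were 7 in liver and 21 in muscle, so counting error is wide for its scarce genes. The table held 0 further per-sample columns.

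CPM by column total and the rule were computed for the 14 libraries of 7 calves with Python 3.11.15. Genes kept by filterByExpr (minimum count 10, minimum total 15) were fitted with edgeR 4.0.16 in R 4.3.3 by its quasi-likelihood test, with TMM and Benjamini-Hochberg adjustment at 0.05, in each organ without covariates and between organs with the calf as a block and the product of organ and origin. DESeq2 1.42.0 was an alternative, and the fits and the rule were tested on simulated data. Both organs come from the same calf, which pairs the libraries by design. Within a calf, liver and muscle deviated from the mean of their group with correlations of -0.14 to 0.27.

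The genes, lists and thresholds were chosen with earlier results of these data known. Named genes were the 15 with the largest smaller difference, the 5 with the highest mean CPM, up to 3 per pathway list (38 in all) and those nearest the limits, and genes described by role were added after their values were seen. Symbols come from the paper's supplementary tables, which pair 4181 of the 27607 IDs. Alternatives were other scalings, pseudocounts, minimum CPM, filters and tests, the inclusion of calf 3213, and leaving out each calf. Some calves share parents, within and across the groups, so p-values measure the spread between these calves. Promoter and protein sequences were not analysed here. Some genes and 1 list covered by these rules are not reported here.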

Additional observations from a re-analysis of the deposited data

Results flagged for a closer look

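The 4 IVP values of 38 named genes in 2 organs gave 76 sets, each tested for a calf far from the others. By Dixon's criterion 4 sets held such a calf. Chance gives about 1 in 20 such sets, so this number is near the share by chance. The sets come from the same libraries and are not independent. In IVP liver, calf 5841 was far below the other IVP calves for MCU, the mitochondrial calcium uniporter, at 0.639 CPM, for the ubiquitin ligase SMURF2 at 3.41 CPM and for beta-catenin (CTNNB1) at 83.0 CPM. These are the same calf and library that held the lowest value for most of the 206 genes. In IVP muscle, calf 5833 was above the other IVP calves for the spectrin SPTAN1, at 107.1 CPM, only just past the limit of the criterion.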

How the results depend on the processing

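The set is small and rests on 4 and 3 calves, and low counts limit many of its genes, with 119 of the 206 under 10 CPM in muscle and 81 in liver. With a minimum mean of 5 CPM 126 genes followed the rule, and with stricter differences (-0.75 in liver and 0.45 in muscle) 79 did. Leaving out each calf in turn gave 144 to 406 genes. TMM factors, DESeq2 size factors, a pseudocount of 2, a minimum of 1 CPM and the inclusion of calf 3213 gave 164, 149, 155, 239 and 201 genes. Calf 3213 lay close to the mean of the other MOET calves, so its inclusion could change little.

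The number of genes called between IVP and MOET in all genes depended strongly on the test and the calves. In liver edgeR called 5 genes, 2998 with 8 calves and no age term, 12 without the filter on low counts, and 1 to 1497 with each calf left out (1497 without calf 3208, 1177 without calf 5841), while DESeq2 called 2245. In muscle edgeR called 83 genes, 1174 with 8 calves and no age term, 227 without the filter, and 11 to 397 with each calf left out, while DESeq2 called 594. The muscle count was 397 without calf 3209, 53 without 5833, 27 without 5841, 23 without 5932, 12 without 3217 and 11 without 3218. The cause was not tested. With 8 calves and age as a covariate the counts were 5 and 60.

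For the test between organs, leaving out the calf as a block gave 78 genes of the set higher in muscle and 82 higher in liver, against 80 and 78 with the block, and moved no count by over 1.5 times. Column totals, a scaling chosen after seeing the data, gave 45 and 127. Leaving out each calf gave 70 to 81 and 65 to 100. Of the single-gene differences between IVP and MOET, 1275 of 1276 recomputed values in liver and 1274 of 1276 in muscle moved by less than the spread between replicates. These values reuse the libraries that chose the genes. The spread within groups was wide in liver, so that limit is loose there. All 429 recomputed differences between organs kept their direction and their call.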

Other observations

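Of the 135 named genes, 19 had no place in the groups by role. WAPL and PDS5A, which together release cohesin from chromosomes, were lower in IVP liver by 0.72 and 0.88 and higher in IVP muscle by 0.44 and 0.37 on the log2(CPM + 0.5) scale. MTRR, the reductase that keeps methionine synthase active, differed by -0.97 in liver and 0.47 in muscle. B4GALT5, a galactosyltransferase of glycolipid synthesis, differed by -0.99 and 0.37. PCMTD1 was among the abundant genes of this kind, with 101, 97.1, 97.3 and 63.5 CPM in the IVP and 139, 116 and 149 CPM in the MOET livers. In muscle PCMTD1 had 95.6, 103, 106 and 115 CPM against 93.1, 89.5 and 71.0 CPM. STOM, a membrane protein related to prohibitins, had 135, 120.3, 139 and 80.7 CPM in IVP liver and 179, 152 and 192 CPM in MOET liver. These genes, too, were chosen by the rule, and their differences are a description.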
